A study of Rattus norvegicus with 6 samples.

Results

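This account covers 6 genes of the excitatory synapse in the embryonic rat cortex, out of 32754 gene IDs in the count table. These genes were chosen by name, without a rule on their values but with earlier results of these data known. They are the NMDA receptor subunit genes Grin1 (ENSRNOG00000011726), Grin2a (ENSRNOG00000033942) and Grin2b (ENSRNOG00000008766), the AMPA receptor subunit gene Gria1 (ENSRNOG00000045816), the scaffold gene Dlg4 (ENSRNOG00000018526) and the kinase gene Camk2a (ENSRNOG00000018712). All 6 IDs were found in the table. The symbols are those paired with the IDs when the list was drawn up. Neither the table nor the reference used here links an Ensembl ID to a symbol, so these pairings were not checked and 0 were dropped on that ground.

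RNA was sequenced from the cortex of single embryos on gestational day 18. The groups were Sprague-Dawley rats (SD, 3 embryos) and tish rats (3 embryos), with 2 males and 1 female in each group. The tish rat is a line with bilateral subcortical heterotopia, a band of misplaced neurons under the cortex, and the series title ascribes it to a deletion in Eml1, a gene for a microtubule-associated protein. The SD animals are the controls and carry no other named allele or treatment. Tissue was described as neocortex for SD and as normally placed plus heterotopic cortex for tish, so dissection and genotype cannot be told apart, and neither can litter, which the labels do not give. Replicates are separate animals per the labels.

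Glutamate is the main excitatory transmitter of the cortex and acts through receptor channels built from several subunits. NMDA receptors need the GluN1 subunit made from Grin1, joined by GluN2 subunits, of which GluN2B (Grin2b) is known to prevail before birth and GluN2A (Grin2a) to become common only later, as synapses mature. AMPA receptors, which include GluA1 (Gria1), carry most fast transmission. PSD-95 (Dlg4) anchors receptors under the postsynaptic membrane, and the alpha subunit of calcium/calmodulin-dependent kinase II (Camk2a) is a kinase of excitatory neurons that calcium entering through NMDA receptors activates. Camk2a, like Grin2a, is best known as a gene of the postnatal forebrain.

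Library totals ran from 15625915 to 20844504 counts. Pearson's r between libraries, over all tested genes and on log2 CPM (counts after scaling to 1 shared library size), was 0.981 to 0.989 within a group and 0.955 to 0.967 between groups, across genes, which are not independent replicates. SD 1 exceeded all other libraries by 4-fold or more in 18 genes and tish 3 fell short of all others by as much in 46, while no other library did so in more than 6 genes. None of the 5 synaptic genes that could be tested was among them. Grin2a had too few counts to be tested and was not part of this comparison. Results without both libraries are given below. Markers of other cell types and the deleted gene Eml1 were not analysed here, since they would have to be found by symbol.

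All 6 genes were higher in every tish library than in any SD library, and the 5 with enough counts to be tested were all called higher in tish. Grin1 and Camk2a rose most, each 2.37-fold, followed by Gria1 (1.84-fold, from a fit over all genes), Grin2b (1.62-fold) and Dlg4 (1.34-fold). Grin2a was at the edge of detection, at 2 to 17 counts in a library, and did not pass the filter on low counts. Of all 14818 tested genes, 13.4% were called higher in tish by the same test (edgeR quasi-likelihood test, Benjamini-Hochberg adjusted p under 0.05), and in 21.7% every tish library lay above every SD library. Both shares leave out Grin2a, which was not tested. The median log2 fold change was 0.88 over the 5 tested members and -0.02 over all tested genes. In whole tissue, a change in the number of cells of a type and a change in RNA per cell cannot be told apart.

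**Figure D1:**
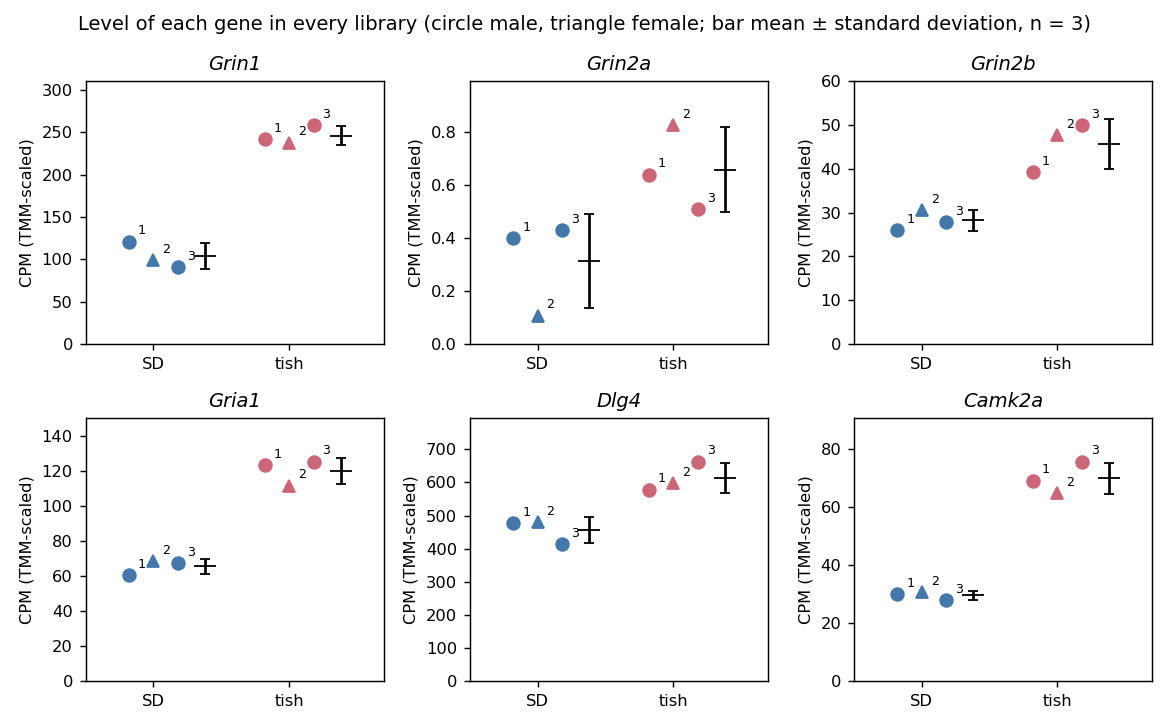
CPM (vertical axis, from 0, a separate scale for each gene) of the 6 genes in 3 SD and 3 tish libraries, with the replicate number beside each point and the mean ± standard deviation (n = 3) as a bar. In each panel the tish points lie above the SD points, with a wide gap for Grin1 (lowest tish 238, highest SD 121) and a narrow one for Grin2a (0.509 and 0.429).

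Grin1, the subunit that every NMDA receptor contains, was counted 2125, 1843 and 1697 times in the SD libraries (SD 1, SD 2, SD 3, the order used throughout). In the tish libraries (tish 1, tish 2, tish 3) it was counted 3790, 4893 and 5084 times. Scaled, these are 121, 99.4 and 90.9 CPM in SD and 242, 238 and 259 CPM in tish. The tish libraries lay close together and the lowest of them was 1.96 times the highest SD library, SD 1. Mean levels were 104 ± 15.5 CPM for SD and 246 ± 11.1 CPM for tish (standard deviation over 3 libraries). The log2 fold change was 1.25 (SE 0.11, edgeR adjusted p = 0.000156), a value exceeded by 2.73% of all tested genes.

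Grin2b, the GluN2 subunit gene of the fetal cortex, gave 458, 568 and 521 reads from SD animals and 616, 982 and 983 from tish animals. Its level was 26.1, 30.6 and 27.9 CPM in SD and 39.3, 47.7 and 50.0 CPM in tish. The groups did not overlap, and tish 1 lay lower than the other tish libraries. The mean rose from 28.2 ± 2.30 to 45.7 ± 5.62 CPM (standard deviation over 3 libraries), which is a log2 fold change of 0.70 (SE 0.12, edgeR adjusted p = 0.00303).

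Grin2a, the GluN2 subunit gene that becomes common after birth, gave only 7, 2 and 8 reads from SD animals and 10, 17 and 10 from tish animals. These counts correspond to 0.399, 0.108 and 0.429 CPM in SD and 0.638, 0.825 and 0.509 CPM in tish. Both the lowest and the highest value came from a female library, SD 2 and tish 2, and the closest values of the groups, SD 3 and tish 3, differed by a factor of 1.19. Summed over libraries there were 17 counts in SD and 37 in tish, a ratio of 2.13 after scaling, with an exact 95% interval of 1.17 to 4.04 that covers counting error only. With no filter on low counts the log2 fold change was 1.08 (SE 0.50, edgeR adjusted p = 0.164), so Grin2a was not called, while 9.11% of the 22335 genes in that fit were called higher in tish. A difference in Grin2a was not detectable by this test at this depth, and the counting interval leaves out the spread between animals.

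Gria1, which encodes the GluA1 subunit of AMPA receptors, gave 1062, 1271 and 1252 reads from SD animals and 1929, 2298 and 2463 from tish animals. Its level was 60.5, 68.6 and 67.1 CPM in SD against 123, 112 and 125 CPM in tish. Each group was tight, with a coefficient of variation of 6.60% in SD and 6.14% in tish. Mean levels were 65.4 ± 4.31 CPM for SD and 120.0 ± 7.37 CPM for tish (standard deviation over 3 libraries), and the log2 fold change was 0.88 (SE 0.09, edgeR adjusted p = 0.000256).

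Dlg4, the gene of the scaffold protein PSD-95, gave 8375, 8902 and 7701 reads from SD animals and 9061, 12303 and 13038 from tish animals. Its level was 477, 480 and 413 CPM in SD and 578, 597 and 663 CPM in tish. SD 3 was the lowest library and tish 3 the highest, and the lowest tish library was 1.204 times the highest SD library. Mean levels were 457 ± 38.1 CPM for SD and 613 ± 44.5 CPM for tish (standard deviation over 3 libraries). The log2 fold change of 0.42 (SE 0.09, edgeR adjusted p = 0.0104) was the smallest of the 5 tested members, and 16.2% of all tested genes had a larger one.

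Camk2a, the kinase gene, gave 526, 567 and 519 reads from SD animals and 1081, 1333 and 1486 from tish animals. Its level was 29.9, 30.6 and 27.8 CPM in SD and 69.0, 64.7 and 75.6 CPM in tish. The SD libraries differed little, with a coefficient of variation of 4.94%, against a median of 11.7% over all tested genes in SD. In tish the coefficient was 7.84%, near the median of 8.53% over all tested genes. The lowest tish library was 2.12 times the highest SD library, the widest gap of the 6 genes on this measure. Mean levels were 29.5 ± 1.45 CPM for SD and 69.8 ± 5.47 CPM for tish (standard deviation over 3 libraries). The log2 fold change was 1.24 (SE 0.10, edgeR adjusted p = 9.54e-05).

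RefSeq promoter windows were at hand for 3 of the 6 symbols: Grin1, Dlg4 and Camk2a, the pair that rose most and the gene that rose least among those tested. The 250 bases before the annotated start are printed to let the windows be compared, 5′ to 3′ on the gene's strand, from the build GRCr8, which is not the build of the counts. Capitals mark matches on either strand to TGACG, a part of the cyclic AMP response element TGACGTCA, and to CACCTG, an E-box variant. The windows lie at chr3:28528755-28529004 (minus strand) for Grin1, chr10:55239534-55239783 (plus strand) for Dlg4 and chr18:56648930-56649179 (plus strand) for Camk2a.
Grin1: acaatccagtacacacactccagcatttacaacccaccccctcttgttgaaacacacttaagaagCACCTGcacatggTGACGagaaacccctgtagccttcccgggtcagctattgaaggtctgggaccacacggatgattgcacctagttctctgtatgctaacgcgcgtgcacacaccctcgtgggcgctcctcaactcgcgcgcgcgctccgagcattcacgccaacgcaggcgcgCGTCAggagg
Dlg4: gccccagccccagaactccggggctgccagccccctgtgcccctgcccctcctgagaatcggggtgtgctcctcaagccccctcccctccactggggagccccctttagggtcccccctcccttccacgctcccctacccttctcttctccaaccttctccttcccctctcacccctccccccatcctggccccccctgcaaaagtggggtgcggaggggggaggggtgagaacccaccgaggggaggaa
Camk2a: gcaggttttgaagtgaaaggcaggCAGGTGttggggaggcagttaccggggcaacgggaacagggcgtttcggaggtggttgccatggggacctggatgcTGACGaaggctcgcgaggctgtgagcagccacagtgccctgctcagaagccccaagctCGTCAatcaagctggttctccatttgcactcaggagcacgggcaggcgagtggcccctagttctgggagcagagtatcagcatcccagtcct

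TGACG, read on both strands, occurred 2 times before Grin1, 2 times before Camk2a and 0 times before Dlg4. At least 2 matches were found in 3.98% of all 33469 windows of this length and at least 1 in 18.2%. TGACG itself contains a CG, and these shares were not matched for CG content. A link between the matches and the fold changes was not tested. CACCTG occurred once before Grin1 and once before Camk2a, and in 15.9% of all windows. The other 7 sequences searched on both strands had no match in these 3 windows. Among these was TGACGTCA, the whole cyclic AMP response element, which contains TGACG on each strand (1.59% of all windows hold it). The E-box CACGTG (5.59%) was absent as well. The rest were GGGCGG (30.5%), TTCAGCACC (0.305%), TATAAA (12.9%), CCAAT (34.0%) and GCGCATGC (2.2%). The windows also differed in base composition, with 19 CG dinucleotides before Grin1, 10 before Camk2a and 5 before Dlg4, against a median of 5 over all windows, and with 57.6%, 60.4% and 69.2% G and C, against a median of 51.2%. These matches describe the letters only. The start used for each window is an annotated one, for Dlg4 387 and for Camk2a 401 bases inside the outer end of the gene, and which start was used in these cortices was not measured.

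For each gene taken alone, a two-sided exact permutation test of log2 CPM gave p = 0.1, the smallest value that 3 against 3 libraries allow. Within tish, tish 3 was the highest library for the 5 tested genes and tish 2 for Grin2a. Within SD the order varied: SD 2 was highest for Grin2b, Gria1, Dlg4 and Camk2a, and SD 1 for Grin1. Averaged over the 5 tested genes, log2 CPM relative to the SD mean was 0.84, 0.85 and 0.996 in tish 1, tish 2 and tish 3, and between -0.08 and 0.05 in the SD libraries.

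**Figure D2:**
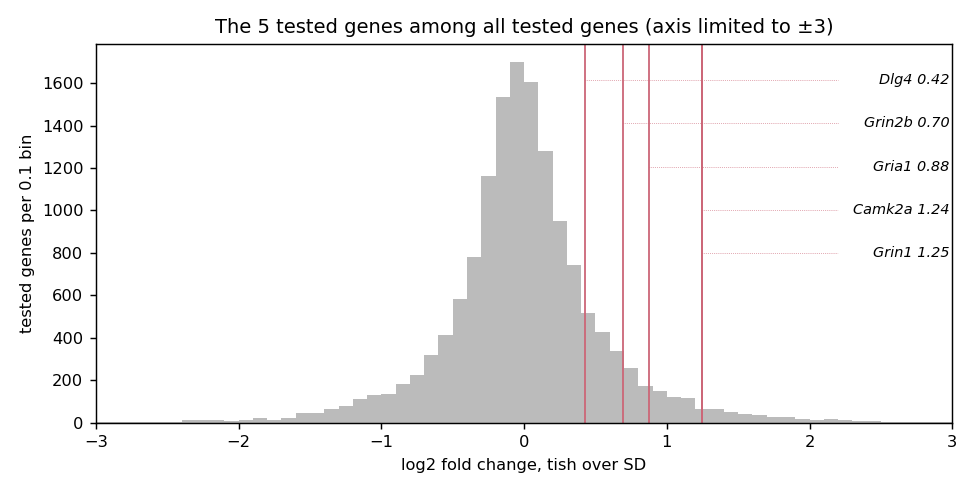
Number of tested genes (vertical axis) in bins of log2 fold change, tish over SD (horizontal axis, limited to 3 in either direction, which leaves out 67 genes), with a line at each of the 5 tested members. The members lie to the right of the centre, from 0.42 for Dlg4 to 1.24 and 1.25 for Camk2a and Grin1, whose lines nearly coincide.

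The 5 tested genes were called higher in tish in 17 of 18 other settings, and at a stricter adjusted p under 0.01 Dlg4 was no longer called. Dlg4 was also the gene nearest to the threshold when 1 library was left out, with an edgeR adjusted p of 0.0466 without tish 3 and 0.0426 without SD 3. With SD 1 and tish 3 both left out, the log2 fold changes were 1.33 for Grin1, 0.57 for Grin2b, 0.79 for Gria1, 0.40 for Dlg4 and 1.19 for Camk2a, and all 5 were called. With males alone, 2 against 2, all 5 were called. Over all genes, calls in either direction numbered 2130 of 14869 tested with males alone. With SD 1 and tish 3 both left out they numbered 3743 of 14896. Over the 18 other settings the count of all called genes ran from 1930 at an adjusted p under 0.01 to 5203 at an adjusted p under 0.1.

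**Figure D3:**
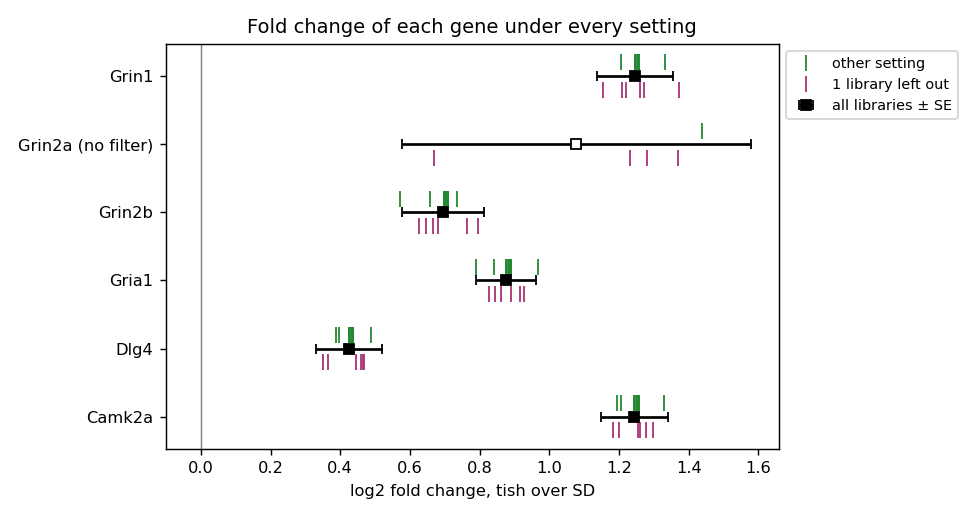
Log2 fold change, tish over SD (horizontal axis), of each gene with all libraries (square, bar ± standard error), in other settings (upper ticks) and with 1 library left out (lower ticks). The open square of Grin2a is the fit with no filter on low counts. Over the settings in which they were fitted, Grin1 spans 1.15 to 1.37, Camk2a 1.18 to 1.33, Gria1 0.79 to 0.97, Grin2b 0.57 to 0.79, Dlg4 0.35 to 0.49 and Grin2a 0.67 to 1.44.

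The fold changes of the tested genes ran from 1.34 to 2.37, and differences between genes were examined through the ratio of 2 genes' counts within a library, which does not depend on how libraries are scaled. Counts grow with transcript length, so a ratio is read only as a change between groups and not as a level of one gene against the other. All 15 pairs were compared, and in 7 the groups did not overlap. How often pairs of other tested genes separate in this way was not measured, so the count is not read as a trait of these genes. The 15 pairs are also not independent, since they are built from 6 genes. For those 7 the exact permutation p was 0.1, the smallest possible, and 0.214 after Benjamini-Hochberg adjustment over the 15 pairs, so no pair passed a threshold of 0.05 in this design.

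Among the 7 pairs without overlap, the differences were largest for Dlg4 to Grin1 and for Camk2a to Dlg4. There were 3.94, 4.83 and 4.54 Dlg4 counts per Grin1 count in the SD libraries and 2.39, 2.51 and 2.56 in the tish libraries. The change in the log2 ratio was -0.83, a ratio 0.563 times that of SD, and it ran from -0.91 to -0.76 with 1 library left out. Camk2a counts per Dlg4 count were 0.0628, 0.0637 and 0.0674 in SD against 0.119, 0.108 and 0.114 in tish, for a log2 change of 0.82, and a ratio 1.76 times that of SD. The ratio to Dlg4 was also higher in each tish library than in any SD library for Gria1 (log2 change 0.45) and for Grin2b (0.26), in the latter by a narrow margin, with 0.0677 in SD 3 and 0.0680 in tish 1.

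Among NMDA receptor subunits, Grin2b counts per Grin1 count were 0.216, 0.308 and 0.307 in SD and 0.163, 0.201 and 0.193 in tish. The groups did not overlap, but SD 1 lay near the tish libraries. The log2 change was -0.56, a ratio 0.676 times that of SD. Gria1 counts per Grin1 count were 0.4998, 0.690 and 0.738 in SD and 0.509, 0.470 and 0.484 in tish. Here SD 1, the SD library with the highest Grin1 level, fell inside the range of tish. The log2 change was -0.38 (exact permutation p = 0.2, adjusted p = 0.333 over 15 pairs) and ran from -0.55 without SD 1 to -0.27 without SD 3. Against Camk2a the receptor genes gave unlike values: the log2 change was -0.55 for Grin2b and -0.37 for Gria1, both without overlap, and 0.01 for Grin1 (exact permutation p = 1), with values of 0.12 without SD 1 and -0.04 without SD 2.

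Grin2b counts per Grin2a count, the pair that is known to shift as NMDA receptors mature, were 65.4, 284 and 65.1 in SD and 61.6, 57.8 and 98.3 in tish. The value of 284 in SD 2 rests on 2 Grin2a counts. The groups overlapped, with a log2 change of -0.60 (exact permutation p = 0.5, adjusted p = 0.682 over 15 pairs) that became 0.11 without SD 2. Grin2a counts per Grin1 count overlapped as well, with a log2 change of 0.03 (exact permutation p = 0.9, adjusted p = 1). No shift between the GluN2 genes was detectable at this depth.

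**Figure D4:**
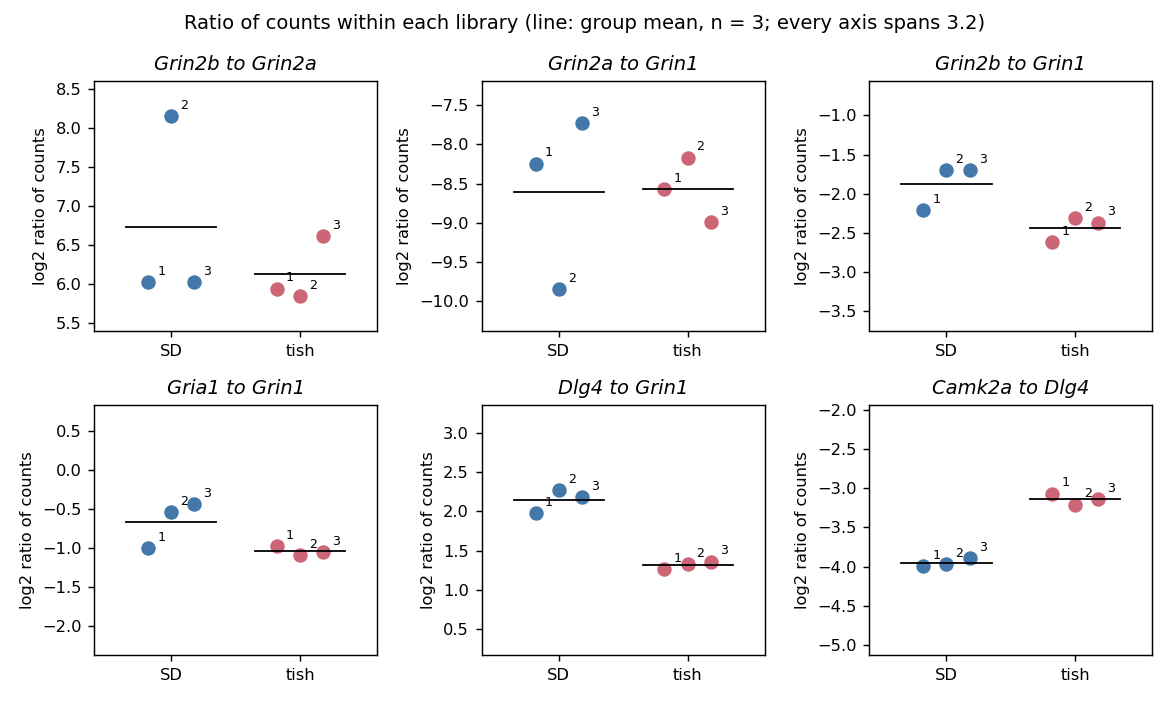
Log2 ratio of the counts of 2 genes within each library (vertical axis, the same span in every panel), with the replicate number beside each point and the group mean as a line (n = 3). The groups are apart for Dlg4 to Grin1, Camk2a to Dlg4 and Grin2b to Grin1, and overlap for Gria1 to Grin1 and for both pairs with Grin2a, where SD 2 stands far from the other SD libraries.

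Likeness of pattern was measured as the root mean square difference of log2 CPM, each gene centred on its own mean over the 6 libraries, so that 0 is the same profile. Grin1 and Camk2a lay 0.108 apart. Seen from Camk2a, Grin1 ranked 23 among 14817 other tested genes, and seen from Grin1, Camk2a ranked 36. The median distance of all tested genes was 0.673 from Grin1 and 0.659 from Camk2a. Gria1 and Grin2b lay 0.160 apart, at rank 194 from Gria1 and 277 from Grin2b. Dlg4 lay 0.424 from Grin1, 0.410 from Camk2a and 0.174 from Grin2b. Seen from Dlg4, 70.4% of tested genes were nearer than Grin1 and 68.1% nearer than Camk2a. Seen from the other side, 11.3% of tested genes were nearer to Grin1 than Dlg4 was, and 10.4% were nearer to Camk2a. The side matters because 329 genes lay within 0.1 of Dlg4, against 26 for Grin1 and 17 for Camk2a. For Grin2a the nearest member was Grin1 at 0.494, with 8.59% of tested genes nearer. The 6 libraries share the split by genotype, so a difference in fold change between 2 genes enters their distance. The log2 ratio changed by -0.83 between groups for Dlg4 to Grin1 and by 0.82 for Camk2a to Dlg4. These distances and ranks are therefore not separate from the fold changes and do not measure shared variation between animals. The nearest genes outside the 6 carried no symbol and are not named; the closest lay at 0.0527 from Grin1, 0.0458 from Camk2a, 0.0451 from Gria1, 0.0373 from Grin2b and 0.0200 from Dlg4.

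Sex made no called difference in these genes. With genotype in the model, the log2 fold change of male over female was 0.08 for Grin1, -0.14 for Grin2b, 0.03 for Gria1, -0.03 for Dlg4 and 0.04 for Camk2a, with standard errors of 0.09 to 0.12. None of the 5 was called (edgeR adjusted p 0.667 to 0.931), and 0 of them had an unadjusted p under 0.05, while 0.0405% of all tested genes were called. DESeq2 called none of the 5 either. The test rests on 2 female and 4 male libraries, so modest differences between the sexes may not have been detectable.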

How the data were processed

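Total RNA from the cortex of 6 rat embryos was sequenced, 3 per group. The authors deposited raw read counts per Ensembl gene ID. STAR alignment to Rnor_6.0 and counting by featureCounts 1.5.0 are named in the submitters' processing notes. For strand, annotation release and the handling of reads with several matches, nothing is given in the sources used here. Reads shared with overlapping, antisense or related genes are therefore uncertain. Of the 32754 gene IDs in the table, 32751 stand in it 2 times, with 0 differing values, and the first line of each ID was used.

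The table was fitted whole with edgeR 4.0.16 in R 4.3.3: filterByExpr with a minimum count of 10, TMM scaling, and a robust quasi-likelihood F test on genotype, with Benjamini-Hochberg adjustment over 14818 genes and a threshold of 0.05. The standard error is the log2 fold change divided by the square root of F. CPM are counts scaled to a common TMM-adjusted library total, and log2 CPM used a prior count of 2. A count of 0 allows up to 3 counts, or 0.144 to 0.192 CPM in a library, for counting error only. Alternatives were DESeq2 1.42.0, limma voom 3.58.1, other scalings, filters, thresholds and sets of libraries.

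The members, gene pairs, motifs and alternatives were chosen with earlier results of these data known, and the motifs after the counts were seen. All 6 members are named with their values, and no values are given for any other named gene. A planned list of other glutamate receptor and postsynaptic genes and planned cell type markers were not analysed here, because 0 of 47357 reference genes carried an Ensembl ID. Replicate numbers are names only and pair no animals.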

Additional observations from a re-analysis of the deposited data

How the results depend on the processing

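All 85 values of member fold changes between tish and SD under other settings kept their direction and side of the threshold, and the count of 5 members called became 4 at an adjusted p under 0.01. The count of all called genes, 3894, was 2130 with males alone and 1930 at an adjusted p under 0.01. It ran from 2437 to 4764 with 1 library left out, lowest without tish 1, 2502 without tish 3 and highest without SD 1. The cause was not tested.

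Of 120 log2 changes of pair ratios, 17 changed sign, all in pairs with Grin2a or in Grin1 to Camk2a. With males alone the changes were -0.79 for Grin2a to Grin1, 0.25 for Grin2b to Grin2a, -0.50 for Grin2a to Gria1, -0.018 for Grin2a to Dlg4, -0.86 for Grin2a to Camk2a and -0.070 for Grin1 to Camk2a. With 0.5 counts added they were -0.076 for Grin2a to Grin1 and -0.063 for Grin2a to Camk2a. With 1 library left out they ran from -0.59 to 0.47 for Grin2a to Grin1, from -0.95 to 0.11 for Grin2b to Grin2a, from -0.27 to 0.76 for Grin2a to Gria1, from -0.63 to 0.43 for Grin2a to Camk2a and from -0.042 to 0.12 for Grin1 to Camk2a. Of 35 log2 fold changes of male over female, 7 changed sign and 0 were called. With 1 library left out they ran from -0.016 to 0.16 for Grin1, from -0.11 to 0.16 for Gria1, from -0.11 to 0.061 for Dlg4 and from -0.084 to 0.16 for Camk2a. The cause was not tested.

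Depth limits Grin2a most among the 6 genes. It had a value in 6 settings, the fit with no filter and 5 with libraries left out, and no value in the others. Alternatives for the list of other synaptic genes were not run, as the list could not be matched to IDs. No paired analysis was possible because the replicate numbers were assigned as names and the labels tie no SD animal to a tish animal.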
